A study of Mus musculus with 8 samples.

Results

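The proteasome is described here through the genes of its subunits, activators, inhibitor and assembly factors in brains of Nsun5 knockout mice and wild-type littermates. The members were the protein-coding genes whose symbol is Psm, a letter from a to g and then a number, which gave 48 of the 54532 genes in the count table. They comprise 8 genes of the alpha ring (Psma), 11 of the beta ring (Psmb), 6 base ATPases (Psmc), 14 other regulatory-particle genes (Psmd), 4 activators (Psme), 1 inhibitor (Psmf) and 4 assembly chaperones (Psmg). Psmc3ip, a meiotic recombination cofactor, and Psme2b, a near copy of Psme2, carry letters after the number and were counted apart.

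Whole brains came from male mice, 3 months old, wild type (WT) or lacking Nsun5 (KO), of the same litter, and both genotypes were anaesthetised with pentobarbital sodium. Nsun5 encodes a methyltransferase that places a methyl group on a cytosine of the large ribosomal RNA. Ribosome footprints and mRNA were each sequenced in 4 libraries per genotype, while the labels mention 5 mice per genotype and do not say which mouse gave which library. The p-values therefore measure the spread between these libraries, which may be partly technical. The labels do not describe the knockout allele or the cells it acts in.

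The proteasome degrades proteins that carry chains of ubiquitin. Its barrel-shaped core has outer rings of alpha subunits and inner rings of beta subunits, of which Psmb5, Psmb6 and Psmb7 hold the proteolytic sites. A regulatory particle caps the barrel, recognises and unfolds substrates with a ring of ATPases, and removes their ubiquitin. Interferon induces replacement catalytic subunits, Psmb8, Psmb9 and Psmb10, which form the immunoproteasome. In brain the system clears damaged proteins and turns over synaptic proteins.

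Footprint libraries held 0.586 to 3.49 M counts over genes (M for mega), the lowest in KO library 3, and mRNA libraries 15.6 to 17.8 M. Footprint depth differed between the labels. Protein-coding genes held 0.792 to 1.47 M footprint counts in WT and 0.233 to 0.847 M in KO, where only KO library 2 reached the WT range. The members took 1190 to 7949 footprint counts and 51167 to 60897 mRNA counts per library. Nsun5 itself had 82 to 109 mRNA counts in the libraries labelled WT and 83 to 124 in those labelled KO. Its gene-level count did not separate the labels, and the deleted part of the gene is not given in the sources used here, so KO below stands for the label. WT libraries 1 and 2 stood apart from the rest on the first principal component of mRNA, at 23.9 and 22.2 against -13.1 to -3.72 for the other libraries. Neuron and oligodendrocyte markers were abundant in every library, as brain tissue has them. The summed level of 6 oligodendrocyte markers in mRNA was 6553 to 7100 CPM in WT and 4232 to 5771 CPM in KO, that of 5 neuron markers 4513 to 4940 and 5328 to 5842 CPM, and that of 5 leukocyte markers 3.603 to 6.54 and 3.53 to 4.15 CPM. CPM is the count scaled to a fixed library size, with libraries made comparable by the trimmed mean of M values (TMM). The neuron markers differed among themselves in mRNA. Mean levels in WT and KO were 2353 and 3011 CPM for Snap25, 401 and 405 for Stmn2, and 358 and 363 for Tubb3. In footprints the neuron sums overlapped, at 2530 to 4183 CPM in WT and 2684 to 2908 CPM in KO. Oligodendrocyte sums in footprints were 1990 to 2375 and 1418 to 1773 CPM. The part of these marker differences in the results below was not tested. In bulk tissue, fewer cells of a type and less RNA per cell cannot be told apart.

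The summed level of the proteasome genes overlapped between the genotypes in both assays and differed little between libraries. Summed over the 48 genes, mRNA of the libraries labelled WT was 3395, 3442, 3294 and 3483 CPM, in the order of their numbers here and below, and that of the libraries labelled KO 3424, 3437, 3187 and 3432 CPM. The groups overlapped, and KO library 3 was the lowest of all. The means were 3403 ± 81.2 CPM in WT and 3370 ± 122 CPM in KO (SD, n = 4), a KO/WT ratio of 0.990. Footprints of the same genes summed to 2500, 2465, 2340 and 2519 CPM in WT and 2316, 2474, 2287 and 2506 CPM in KO. They too overlapped, with means of 2456 ± 80.5 and 2396 ± 110 CPM (SD, n = 4) and a ratio of 0.9755. The coefficient of variation over all 8 libraries was 2.88% in mRNA and 3.91% in footprints. With totals in place of TMM the footprint ratio was 0.874, and single libraries then ranged from 1533 to 3674 on that scale. As a share of protein-coding counts the footprint ratio was 0.977, and single libraries ranged from 0.512 to 0.567%.

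**Figure D1:**
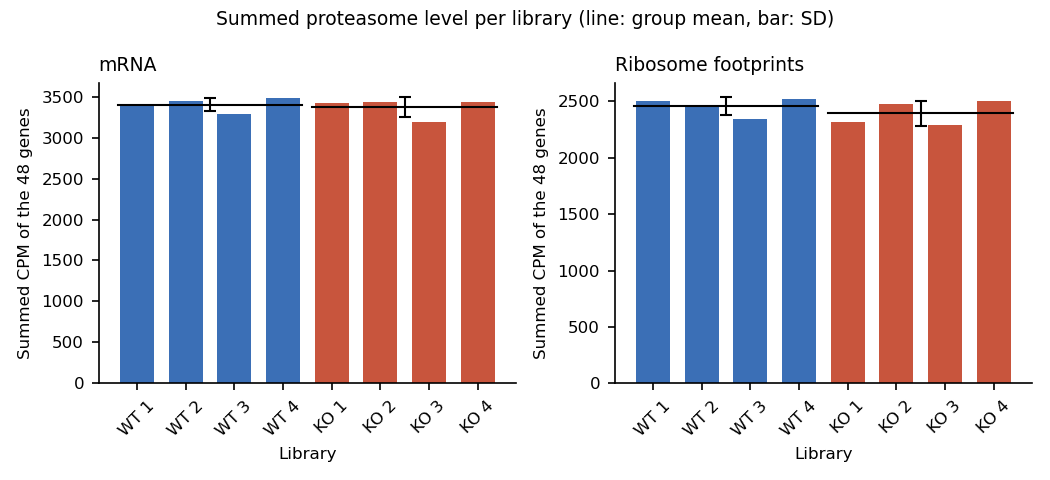
Summed CPM of the 48 proteasome genes in each library, mRNA on the left and ribosome footprints on the right, with WT in blue and KO in red. Horizontal lines are group means and error bars are SD over 4 libraries. The mRNA sums lie between 3187 and 3483 CPM and the footprint sums between 2287 and 2519 CPM, with the groups overlapping in both.

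No single member passed the test between the genotypes in mRNA, in footprints or in footprints relative to mRNA. In edgeR's quasi-likelihood test with Benjamini-Hochberg adjustment over all genes tested, 0 of 44 members passed an adjusted p of 0.05 in mRNA, where the share of all 13058 genes that passed was 0%. In footprints it was 0 of 41 members, and the share of all 8476 genes was again 0%. For translational efficiency, the change of footprints relative to the change of mRNA in 1 model of all libraries, it was 0 of 44 members and 0% of 9673 genes. At an unadjusted p under 0.05 there were 0 members in mRNA against 10.5% of all genes, 3 in footprints (7.32% of the members, against 5.52% of all genes) and 4 in translational efficiency (9.09%, against 10.8%). By DESeq2 0 members passed in any of the comparisons, with 75 genes of all kinds in mRNA, 4 in footprints and 150 in translational efficiency. Cerebral cortex markers summed to 1033 to 1331 CPM in WT mRNA and 1321 to 1764 CPM in KO mRNA, but to 266 to 338 and 245 to 327 CPM in footprints. Hypothalamus markers summed to 1.03 to 110 and 0.228 to 8.01 CPM in mRNA, and to 2.48 to 53.2 and 51.9 to 104 CPM in footprints. The assays thus differed in regional markers between the labels, and the part of this in the translational efficiency values was not tested.

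How tightly the data bound a change differed between the assays. The mRNA log2 fold changes of the 44 members ran from -0.29 to 0.19 with a median of -0.03, beside -0.01 for all genes, and 26 were below 0 (59.1%, against 51.4% of all genes). The 95% interval lay within 1.5-fold in either direction for 43 of 44 members, against 79% of all genes, and Psme1 was the exception. Footprint fold changes were spread more widely, from -1.01 to 1.03 on the log2 scale. Their median was -0.05 beside -0.00 for all genes, and 24 of 41 were below 0 (58.5%, against 50.4%). The interval was within 1.5-fold for 16 of the 41 (39%, against 20.6% of all genes). For translational efficiency the median was 0.01, beside 0.00 for all genes, with 20 of 44 below 0 (45.5%, against 49.6%) and 19 intervals within 1.5-fold (43.2%, against 17.2%). The members that passed the filters on low values are the abundant ones. Psma8, Psmb8, Psmb9 and Psmb11 were tested in none of the comparisons, and Psme2, Psmg3 and Psmg4 not in footprints.

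**Figure D2:**
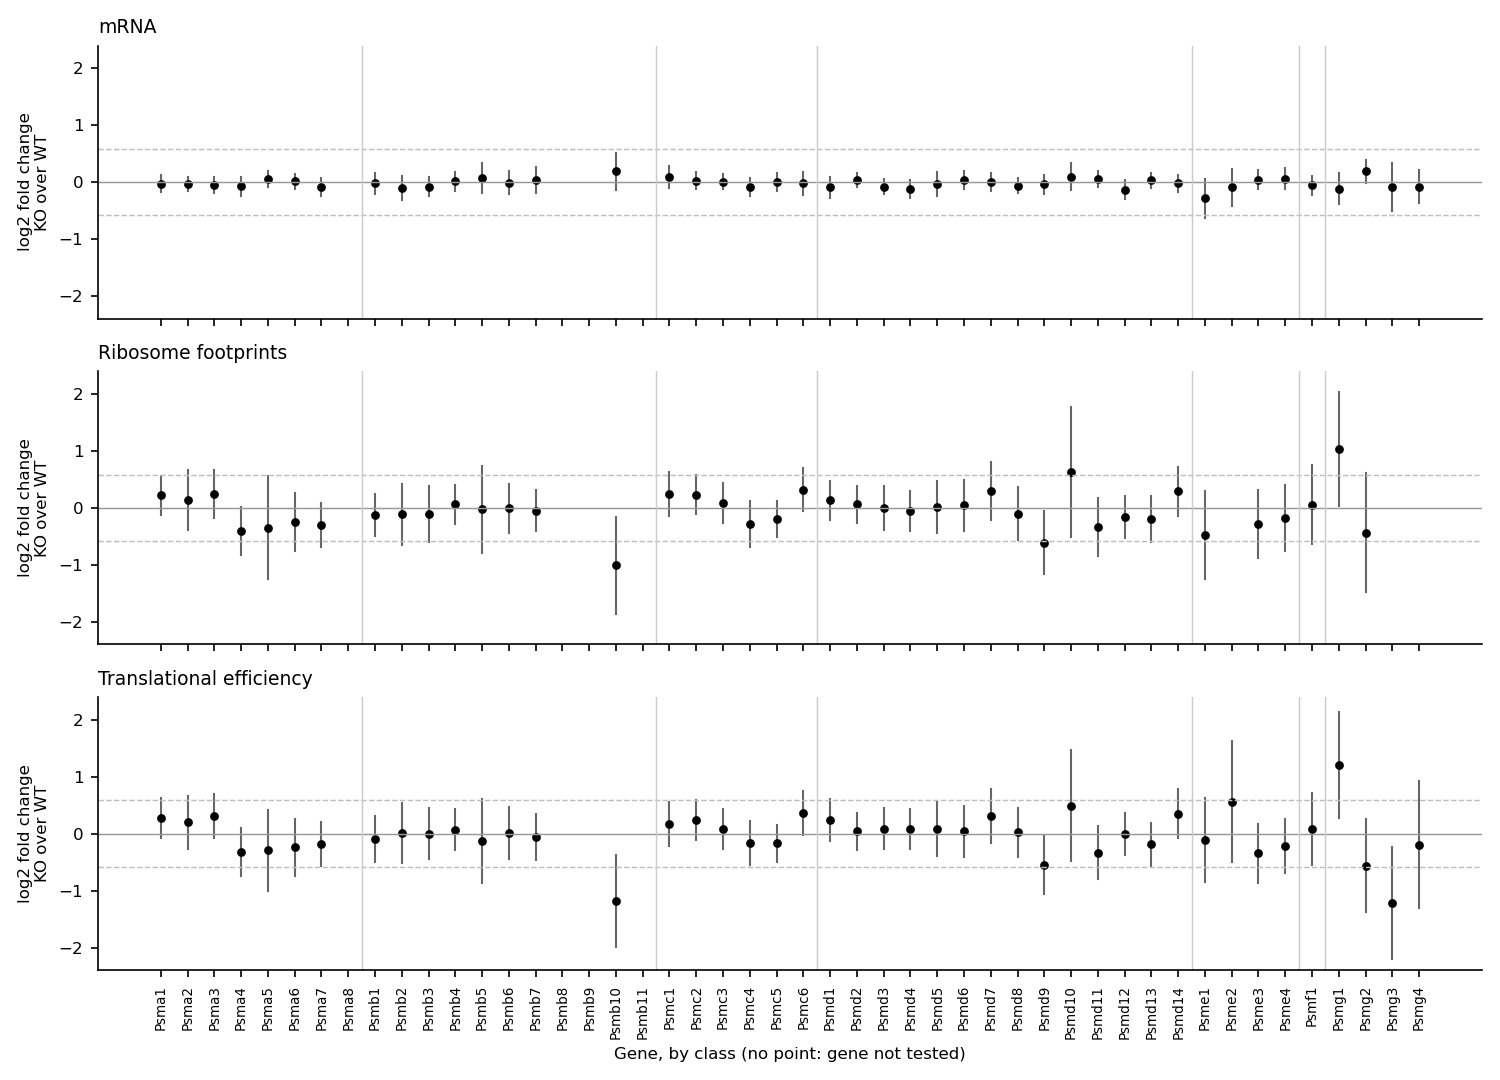
Log2 fold change of KO over WT for each tested member in mRNA, ribosome footprints and translational efficiency, ordered by class. Points are edgeR estimates, bars are 95% intervals and dashed lines mark 1.5-fold in each direction. In mRNA every bar except that of Psme1 lies between the dashed lines, while footprint bars are wider and Psmb10, Psmd9 and Psmg1 have bars that do not reach 0.

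The catalytic genes of the core were compared in mRNA and footprints, and no protein or assembled particle was measured. The upstream sequences of Psmb5 and Psmb6, constitutive catalytic genes, and of Psmb9, their interferon-inducible counterpart with near-absent transcripts here, are printed as examples. Each is the 250 bases before the RefSeq gene start in GRCm38.p6, 5′ to 3′ on the gene's strand, at chr14:54617996-54618245 on the minus strand, chr11:70525107-70525356 on the plus strand and chr17:34187331-34187580 on the minus strand. Capitals mark motif matches on either strand. Psmb7, Psmb8 and Psmb10 are not printed, and no interferon-response element was among the 5 motifs searched. The windows therefore do not contrast constitutive with inducible genes.
Psmb5: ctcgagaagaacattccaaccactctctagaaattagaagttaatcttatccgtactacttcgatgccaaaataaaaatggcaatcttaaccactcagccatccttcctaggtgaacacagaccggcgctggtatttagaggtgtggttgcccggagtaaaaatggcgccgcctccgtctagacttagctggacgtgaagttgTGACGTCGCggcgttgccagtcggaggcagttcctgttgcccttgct
Psmb6: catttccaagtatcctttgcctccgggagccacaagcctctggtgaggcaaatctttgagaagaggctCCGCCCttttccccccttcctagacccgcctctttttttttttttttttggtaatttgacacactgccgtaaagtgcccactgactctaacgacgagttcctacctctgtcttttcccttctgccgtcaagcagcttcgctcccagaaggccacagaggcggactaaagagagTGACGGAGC
Psmb9: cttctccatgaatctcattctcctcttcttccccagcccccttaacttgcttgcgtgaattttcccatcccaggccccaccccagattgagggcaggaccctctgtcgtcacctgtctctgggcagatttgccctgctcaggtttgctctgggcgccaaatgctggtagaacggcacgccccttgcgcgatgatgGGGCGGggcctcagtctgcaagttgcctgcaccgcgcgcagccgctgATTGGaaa
In Psmb5 and Psmb6 the capitals include TGACNNNGC, the core of the antioxidant response element bound by Nfe2l1 and Nfe2l2, at 47 to 39 bases before the start as TGACGTCGC and at 9 to 1 bases before it as TGACGGAGC. Psmb6 also held the GC box GGGCGG on the other strand. Psmb9 held a GC box and, on the other strand, the CCAAT box. The window of Psmb9 lies within the gene's span in the count table, whose annotation begins the gene farther upstream.

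A promoter window was matched by symbol for 40 of the 48 members, with 43 windows in all. TGACNNNGC stood in 5 of these windows (11.6%), beside 10.2% of 32851 windows of all genes. The members with it were Psmb5, Psmb6, Psmc6, Psmd12 and Psmd9. GGGCGG was in 53.5% of member windows and 32.7% of all windows, CCAAT in 32.6% and 33.9%, TATAAA in 9.30% and 12.4%, and CCGGAAG, an ETS-type element, in 30.2% and 6.91%. The windows of all genes include noncoding genes, both strands were searched, and the motifs were kept after their shares had been seen. A match describes letters and is not a bound site.

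Psmb5, the chymotrypsin-like site, had mRNA levels of 65.3, 65.5, 85.5 and 88.3 CPM in WT and 85.7, 89.6, 70.1 and 75.8 CPM in KO. The low WT libraries were the pair that stood apart, and the groups overlapped. Its log2 fold change was 0.08 ± 0.12 (SE) with an edgeR adjusted p of 0.866. Psmb6, the caspase-like site, had 72.3, 74.8, 78.2 and 87.0 CPM in WT and 81.4, 86.1, 66.1 and 75.7 CPM in KO. Psmb7, the trypsin-like site, had 69.3, 63.3, 74.1 and 90.6 CPM in WT and 77.6, 78.9, 75.1 and 73.9 CPM in KO. All 3 genes overlapped between the groups in mRNA. In footprints Psmb5 had 15.3, 36.6, 39.9 and 16.2 CPM in WT and 39.1, 24.8, 28.8 and 16.7 CPM in KO, a spread within WT that exceeded any difference between the means of 27.0 and 27.4 CPM. Psmb6 had 104, 155, 131 and 88.6 footprint CPM in WT and 145, 126, 117 and 88.3 CPM in KO. For Psmb7 the footprint values were 63.4, 77.5, 65.9 and 72.0 CPM in WT and 51.3, 77.6, 59.6 and 78.5 CPM in KO. Their footprint log2 fold changes were -0.03 ± 0.36 for Psmb5, -0.01 ± 0.20 for Psmb6 and -0.05 ± 0.17 for Psmb7 (SE).

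Of the inducible catalytic subunits, Psmb8 and Psmb9 were scarce, while Psmb10 mRNA came near that of the constitutive Psmb7. Scaled per kilobase of gene length, Psmb10 stood at 18.6 CPM in WT and 21.3 in KO, beside 21.7 and 22.3 for Psmb7. Psmb8 mRNA was 1.24, 1.30, 2.21 and 2.12 CPM in WT and 1.58, 2.08, 2.06 and 1.76 CPM in KO. Psmb9 mRNA was 1.30, 1.23, 2.45 and 1.37 CPM in WT and 1.58, 1.36, 0.997 and 1.71 CPM in KO. Both genes overlapped between the groups. Psmb9 had 4 footprints in all, in WT library 3 and KO library 2, and Psmb8 had 30. Psmb9 overlaps Tap1 on the opposite strand, and whether counting used strand is not given in the sources used here. Psmb10, at chr8:105935735-105938444 on the minus strand in mm10, had 26.4, 25.6, 37.4 and 37.6 CPM of mRNA in WT and 38.9, 41.5, 31.3 and 33.3 CPM in KO. WT libraries 1 and 2 were again the low ones. The log2 fold change was 0.19 ± 0.15 (SE) with an edgeR adjusted p of 0.692.

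Psmb10 had the lowest footprint p of the members. Its footprints were 16.4, 9.30, 23.4 and 17.7 CPM in WT and 4.89, 8.44, 11.5 and 8.83 CPM in KO, from 29, 30, 64 and 47 counts in WT and 4, 16, 6 and 9 counts in KO. The KO values were low, but KO library 3 lay above WT library 2. The footprint log2 fold change was -1.01 ± 0.40 (SE), with an unadjusted p of 0.0237 and an edgeR adjusted p of 0.875. For translational efficiency it was -1.19 ± 0.39 (SE), with an unadjusted p of 0.00594 and an adjusted p of 0.272. It did not pass the adjusted threshold under any alternative, and the lowest adjusted p was 0.0954, with DESeq2.

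Per kilobase of gene length, Psmb8, Psmb9 and Psmb10 accounted for 11.03, 10.8, 12.9 and 11.9% of the mRNA level of the 6 catalytic genes in WT, by library number, and for 12.8, 13.1, 12.5 and 12.4% in KO. The group means were 11.6 ± 0.95% and 12.7 ± 0.34% (SD, n = 4). In footprints the share was 10.9, 4.02, 9.68 and 11.5% in WT and 3.61, 4.43, 5.69 and 6.24% in KO, with means of 9.01 ± 3.41% and 4.99 ± 1.19%. WT library 2 lay inside the KO range, so the groups overlapped in footprints as they did in mRNA. In mRNA nearly all of this share was Psmb10. In footprints of KO library 1, Psmb8 stood at 2.23 CPM per kilobase beside 2.87 for Psmb10. As a sum over chosen members it was given no test.

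The tissue-restricted core genes were near 0. Psma8, an alpha subunit of the testis, had 1 to 9 mRNA counts per library and 0 footprints in all 8 libraries, which allows up to 0.205 CPM over the 8 libraries together by counting error (3 counts). Psmb11, the beta subunit of the thymic cortex, had 0 to 8 mRNA counts and 1 footprint, in KO library 3. Testis germ cell markers summed to 0.368 to 1.37 CPM of mRNA. Psme2b had 7.59 to 11.1 CPM of mRNA in every library and 0 footprints in all 8, with the same limit of 0.205 CPM. Reads of Psme2 and Psme2b may be divided between the copies by the counting, so both levels are uncertain. Of 4 annotated Psmb pseudogenes none had more than 7 mRNA counts over all libraries.

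**Figure D3:**
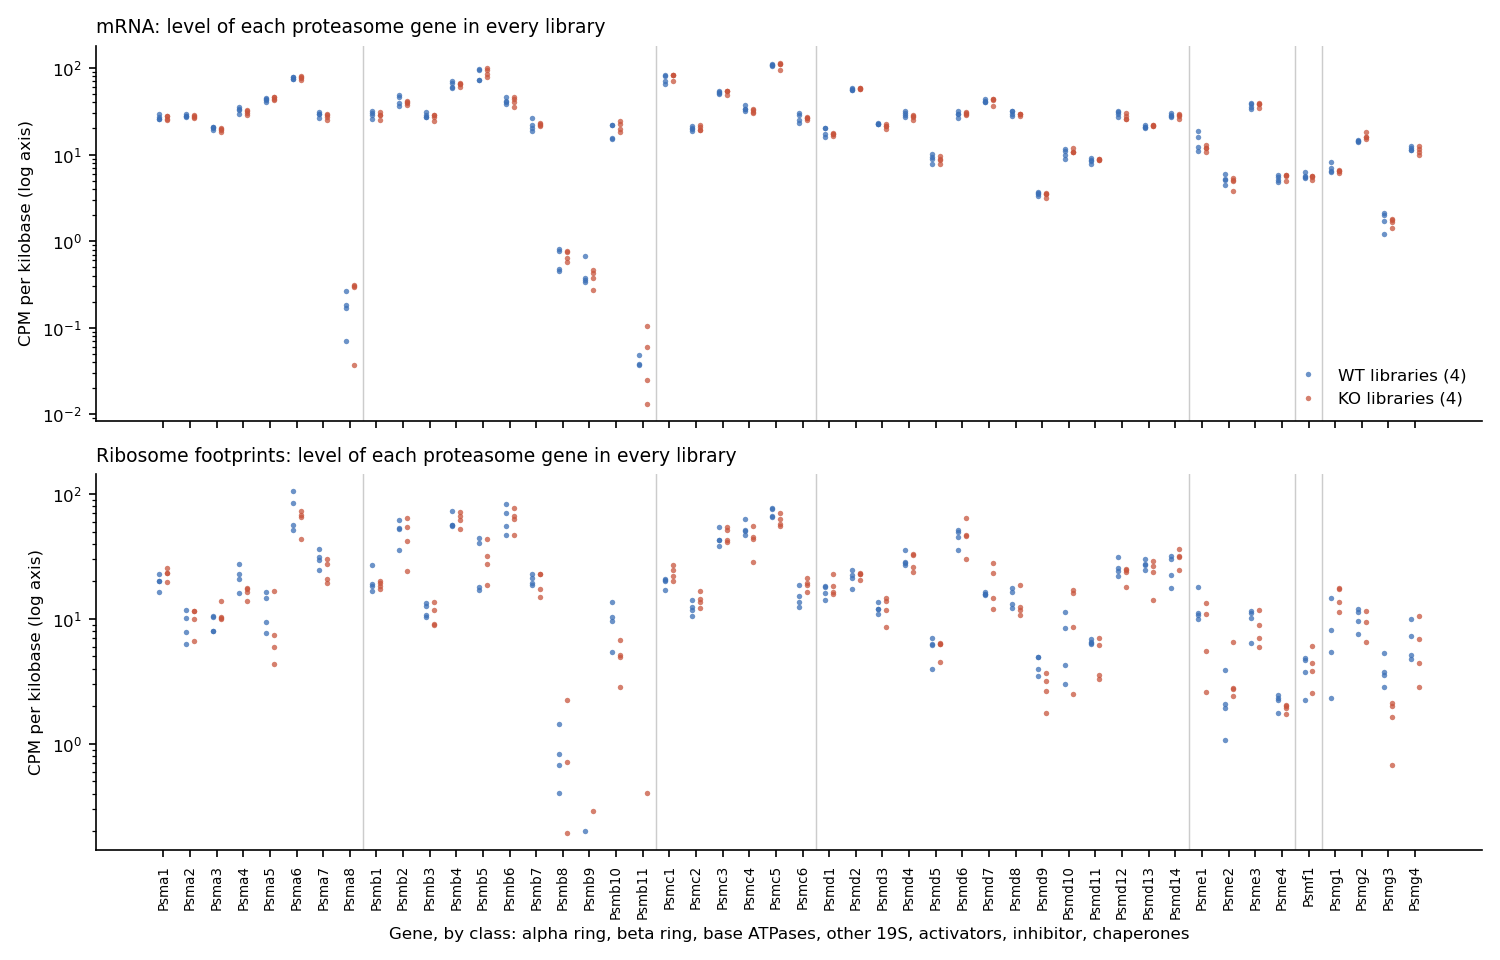
Level of each proteasome gene per kilobase of gene length, on a log axis, in every library, with mRNA above and ribosome footprints below. Points are single libraries, WT in blue and KO in red, genes are grouped by class, and libraries with 0 counts are not drawn. WT and KO points lie over each other for most genes, and in the mRNA panel Psma8, Psmb8, Psmb9 and Psmb11 sit far below the other core genes.

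The stably assembled barrel holds its subunits in equal number, and the levels per kilobase were not equal. Among the constitutive core genes, Psma1 to Psma7 and Psmb1 to Psmb7, mean WT mRNA ran from 20.2 CPM per kilobase for Psma3 to 84.7 for Psmb5, a 4.19-fold range with a coefficient of variation of 50.1% over the 14 genes. Footprints spread farther, from 9.07 CPM per kilobase for Psma2 to 74.1 for Psma6, an 8.17-fold range and a coefficient of variation of 71.1%. In KO the coefficients were 53.3% and 71.3%. The lengths are those of the deposited table and include untranslated exons, which carry few footprints, so footprint levels per kilobase are set against lengths that ribosomes only partly cover. The share of coding sequence in each gene was not tested.

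In the alpha ring, which gates the barrel, Psma3 was the lowest constitutive gene in mRNA and Psma6 the highest at 76.7 ± 2.27 CPM per kilobase in WT (SD, n = 4). Psma6 also led the ring in footprints, at 74.1 ± 25.2 CPM per kilobase in WT and 62.3 ± 13.0 in KO. The mRNA fold changes of the 7 tested alpha genes lay between -0.09 and 0.06 on the log2 scale. Of these, 5 were below 0, against 51.4% of all genes. In footprints 4 of 7 were below 0, against 50.4% of all genes, with a median of -0.25. Psma4 had the lowest p of the ring. Its footprints were 38.5, 65.4, 49.4 and 54.3 CPM in WT and 39.1, 41.2, 32.7 and 42.2 CPM in KO. The KO values lay at the low end, with WT library 1 among them, and the log2 fold change was -0.41 ± 0.20 (SE) with an edgeR adjusted p of 0.881. Psma4 mRNA differed by -0.08 ± 0.07.

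In the beta ring, 7 of the 8 genes tested in footprints were below 0, against 50.4% of all genes, with a median of -0.08. All but Psmb10 lay between -0.12 and 0.06. In mRNA 4 of 8 were below 0, against 51.4% of all genes, with a median of -0.00. Psmb4 and Psmb2, which hold no proteolytic site and a structural place in the ring, had mRNA at 64.2 and 42.9 CPM per kilobase in WT. Psmb3 had the lowest footprint level of the constitutive beta genes, 11.7 ± 1.47 CPM per kilobase in WT and 10.8 ± 2.22 in KO.

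The base ATPases form the ring that unfolds substrates and threads them into the barrel. Psmc5 had the highest mRNA level of the 6, 108 ± 2.16 CPM per kilobase in WT and 108 ± 9.55 in KO, and Psmc2 the lowest, 19.99 ± 1.11 and 20.3 ± 1.22 (SD, n = 4). The same genes were highest and lowest in footprints, at 71.2 ± 6.16 and 12.2 ± 1.52 CPM per kilobase in WT. All 6 mRNA fold changes lay between -0.09 and 0.08 on the log2 scale. Psmc6 had the lowest footprint p of the class. It had 65.1, 43.7, 47.9 and 53.5 footprint CPM in WT and 64.8, 57.5, 67.3 and 73.6 CPM in KO. WT library 1 lay within the KO range, and the log2 fold change was 0.32 ± 0.17 (SE) with an edgeR adjusted p of 0.881.

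The other regulatory-particle genes include the scaffold Psmd2, the ubiquitin receptor Psmd4, the deubiquitinase Psmd14, and the base chaperones Psmd5, Psmd9 and Psmd10, which leave the finished particle. Psmd2 had the highest mRNA level per kilobase, 56.7 ± 1.54 in WT and 58.1 ± 0.85 in KO, and Psmd9 the lowest, 3.54 ± 0.14 and 3.44 ± 0.20. In footprints Psmd6, a lid subunit, was highest at 45.5 ± 7.31 CPM per kilobase in WT and 46.9 ± 13.9 in KO. Median fold changes over the 14 genes were -0.03 in mRNA and 0.01 in footprints on the log2 scale. Of the genes with the lowest mRNA p, the lid subunit Psmd12 had 84.0, 78.8, 72.2 and 81.6 CPM in WT and 73.2, 67.9, 68.5 and 79.2 CPM in KO. Psmd4 had 79.7, 85.8, 76.4 and 89.9 CPM in WT and 76.3, 77.6, 71.3 and 80.9 CPM in KO. Psmd3, a lid subunit, had 111, 114, 110 and 113 CPM in WT and 106, 112, 97.9 and 107 CPM in KO. KO values were toward the low end in these 3 genes and overlapped WT in each. Their log2 fold changes were -0.13 ± 0.07, -0.12 ± 0.07 and -0.08 ± 0.06 (SE), with edgeR adjusted p-values of 0.559, 0.599 and 0.667.

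Psmd9, at chr5:123169413-123250131 on the plus strand in mm10, had the lowest footprint p among the regulatory particle genes outside the ATPase ring. It had 28.9, 35.7, 35.9 and 25.3 footprint CPM in WT and 26.9, 23.2, 19.2 and 12.8 CPM in KO. Only KO library 1 reached the WT range. The footprint log2 fold change was -0.61 ± 0.26 (SE), unadjusted p = 0.0344 and edgeR adjusted p = 0.881. Its mRNA was 25.6, 24.2, 26.5 and 26.2 CPM in WT and 25.6, 25.8, 22.8 and 25.5 CPM in KO, a log2 difference of -0.04 ± 0.08. For translational efficiency the value was -0.55 ± 0.25, with an unadjusted p of 0.0368 and an adjusted p of 0.429. Without KO library 4 the footprint value was -0.42 (unadjusted p = 0.114) and the translational efficiency value -0.37 (unadjusted p = 0.158). The gene's span overlaps Hpd on the opposite strand, which had at most 12 mRNA counts in a library. Psmd10, also called gankyrin and like Psmd9 a chaperone of regulatory particle assembly, had a footprint fold change of similar size in the other direction. Its footprints were 6.23, 16.7, 4.39 and 12.4 CPM in WT and 3.66, 12.7, 24.99 and 23.6 CPM in KO. The groups overlapped, and the log2 fold change was 0.63 ± 0.53 (SE) with an edgeR adjusted p of 0.922.

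The activators cap the barrel in place of the regulatory particle. Psme1 and Psme2 form the interferon-inducible cap, Psme3 the nuclear one and Psme4 a large single-chain one. Psme1 mRNA was 41.6, 35.4, 24.5 and 27.2 CPM in WT and 26.6, 26.2, 23.7 and 28.7 CPM in KO. The high values were those of WT libraries 1 and 2. The log2 fold change was -0.29 ± 0.15 (SE) with an edgeR adjusted p of 0.542, and without those libraries it was 0.03 ± 0.11. Psme1 overlaps Emc9 on the opposite strand. Psme1 footprints were 39.7, 24.5, 22.0 and 23.7 CPM in WT and 12.2, 24.3, 5.77 and 29.4 CPM in KO, with a log2 fold change of -0.48 ± 0.36. Psme2 mRNA was 7.78, 10.5, 8.89 and 9.21 CPM in WT and 8.70, 9.55, 6.73 and 9.05 CPM in KO, and its 66 footprints in all were too few for the footprint test.

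Psme3 mRNA was 115, 114, 98.1 and 104 CPM in WT and 114, 101, 113 and 116 CPM in KO. Its footprints were 32.9, 29.8, 34.0 and 18.8 CPM in WT and 20.8, 17.4, 34.6 and 26.5 CPM in KO. Psme4 mRNA was 42.9, 46.5, 48.7 and 40.8 CPM in WT and 48.5, 46.9, 41.5 and 49.1 CPM in KO, with footprints of 18.7, 19.5, 20.5 and 14.7 CPM and 14.7, 16.4, 17.3 and 16.7 CPM. The groups overlapped for both genes in both assays. Psmf1, which inhibits the barrel in vitro, had 40.3, 36.5, 34.8 and 35.1 CPM of mRNA in WT and 32.4, 36.6, 36.0 and 35.7 CPM in KO. Psmf1 footprints were 24.4, 30.4, 31.5 and 14.3 CPM in WT and 39.1, 16.4, 28.8 and 24.5 CPM in KO. Its log2 fold changes were -0.06 ± 0.08 in mRNA and 0.06 ± 0.32 in footprints (SE).

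The assembly chaperones, which build the alpha ring and leave the finished barrel, rested on few footprint counts, and Psmg1 had the highest footprint fold change of the members tested. Psmg1, at chr16:95979933-95990960 on the minus strand in mm10, had 19.8, 3.10, 7.32 and 10.9 footprint CPM in WT and 23.2, 18.5, 15.4 and 23.6 CPM in KO, from 10 to 35 counts in WT and 8 to 35 in KO. WT library 1 lay within the KO range and the other WT libraries below it. The footprint log2 fold change was 1.03 ± 0.46 (SE), unadjusted p = 0.0433 and edgeR adjusted p = 0.881. Its mRNA was 8.67, 8.55, 9.38 and 10.9 CPM in WT and 8.64, 9.02, 8.78 and 8.25 CPM in KO. The translational efficiency difference was 1.21 ± 0.45, with an unadjusted p of 0.0135 and an adjusted p of 0.345. Single WT libraries moved both values. Without WT library 1 the translational efficiency difference was 1.70, with an adjusted p of 0.167, and without WT library 2 it was 0.91, with an adjusted p of 0.574. The footprint log2 fold change was 1.52 without WT library 1 and 0.71, with an unadjusted p of 0.0947, without WT library 2.

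Psmg3 went the other way from Psmg1 in footprints. Psmg3, at chr5:139823592-139826885 on the minus strand in mm10, had 10.2, 10.9, 15.4 and 8.29 footprint CPM in WT and 6.11, 4.75, 5.77 and 1.96 CPM in KO. All KO libraries lay below all WT libraries, on 18 to 42 counts per WT library and 2 to 9 per KO library. Of the 9673 genes in the translational efficiency model, 2.11% had footprint groups with every KO library below every WT library, and of its 44 members 1 (2.27%) did, which was Psmg3. It did not pass the footprint filter and so has no footprint test. In the translational efficiency model its difference was -1.22 ± 0.48 (SE), with an unadjusted p of 0.0176 and an edgeR adjusted p of 0.364. Without KO library 4 it was -0.97, with an unadjusted p of 0.0683. Psmg3 mRNA was 4.95, 3.50, 5.82 and 6.12 CPM in WT and 5.17, 5.10, 4.05 and 4.84 CPM in KO, with the groups overlapping. It overlaps Gm26938, annotated on the same strand with 0 mRNA counts.

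Psmg2, the partner of Psmg1, was the member whose mRNA groups did not overlap. It had 14.9, 15.4, 15.1 and 15.1 CPM in WT and 17.1, 19.2, 16.8 and 15.8 CPM in KO. All KO libraries were above all WT libraries, a pattern seen upward in 1 of 44 members (2.27%) and in 2.85% of all genes tested. The log2 fold change was 0.19 ± 0.09 (SE) with an edgeR adjusted p of 0.498. Its footprints were 10.2, 12.1, 8.05 and 12.8 CPM in WT and 12.2, 10.03, 0 and 6.87 CPM in KO, and overlapped. The 0 stood in KO library 3, where 1 footprint is worth 1.92 CPM. Psmg4, the partner of Psmg3, had 6.31, 6.99, 6.56 and 6.29 CPM of mRNA in WT and 6.43, 6.88, 5.42 and 5.98 CPM in KO. Its footprints were 2.83, 4.03, 5.49 and 2.64 CPM in WT and 2.44, 1.58, 3.84 and 5.89 CPM in KO.

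**Figure D4:**
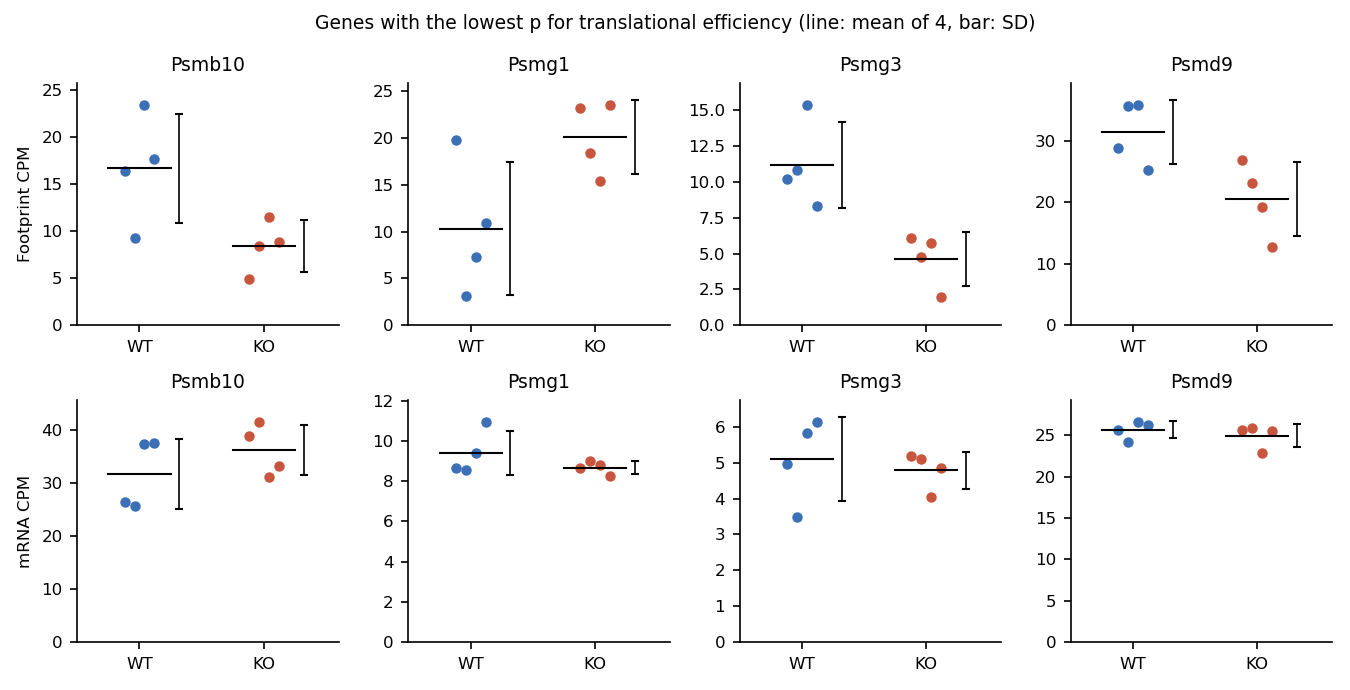
Footprint CPM (top) and mRNA CPM (bottom) of Psmb10, Psmg1, Psmg3 and Psmd9, the members with the lowest p for translational efficiency, in WT (blue) and KO (red). Points are libraries, horizontal lines are means of 4 and bars are SD. KO footprints lie mostly below WT for Psmb10, Psmg3 and Psmd9 and mostly above for Psmg1, while the mRNA points overlap for all 4 genes; none passed the adjusted threshold.

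Members also differed in how many footprints they carried for their mRNA. As the log2 ratio of footprint CPM to mRNA CPM, with libraries of the same name set together, the median WT value of the 44 members with both measures was 0.48, beside -0.07 for all 9673 genes, and 33 of the 44 lay above that median. The lowest were Psmc1 at -0.88 ± 0.25, Psme3 at -0.88 ± 0.38 and Psma5 at -0.84 ± 0.49 (SD, n = 4). These sat at the 18.8th, 19.01st and 20.04th percentile of all genes. The highest were Psmg3 at 2.08 ± 0.49, Psmd6 at 1.68 ± 0.20, Psmc4 at 1.67 ± 0.24 and Psmb6 at 1.63 ± 0.43, between the 97.8th and the 99.0th percentile. The place of Psmg3 did not hold in KO, where its ratio was 0.85 ± 0.74. The highest KO ratio was that of Psmg1 at 2.20 ± 0.34, which stood at 0.87 ± 1.05 in WT. The SDs rest on matching the assays by library name, which was not tested. The hypothalamus marker Avp had 14.9 and 15.3 CPM in mRNA and footprints of WT library 1. In WT library 2 it had 17.3 and 0.930 CPM.

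The ratio differed within rings that assemble from equal numbers of subunits. Psmc1 and Psmc4 sit in the same ATPase ring, and with WT means of -0.88 and 1.67 every WT library of Psmc4 lay above every one of Psmc1. Psmb5 and Psmb6 are neighbouring catalytic genes by function, with WT ratios of -0.56 ± 0.76 and 1.63 ± 0.43. In KO the 4 ratios were -0.71 ± 0.20 for Psmc1, 1.44 ± 0.37 for Psmc4, -0.54 ± 0.49 for Psmb5 and 1.67 ± 0.29 for Psmb6. Across the 44 members, mean WT mRNA and footprint CPM had a Spearman rho of 0.693 and a Pearson r of 0.836 on the log2 scale. These points share libraries and gene lengths, and genes are not independent replicates. Footprints come from the coding part of a transcript and mRNA reads from all of it, so the ratio also moves with the share of a gene that is coding, which was not tested.

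**Figure D5:**
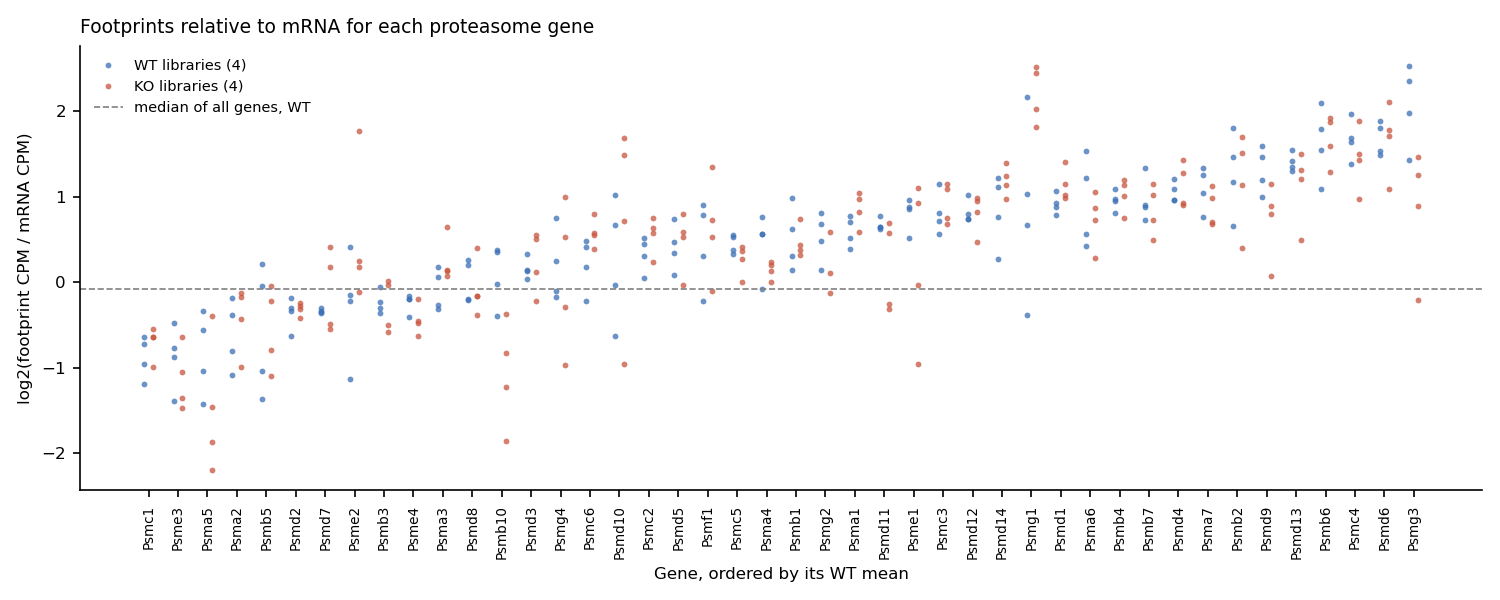
Log2 of footprint CPM over mRNA CPM for the 44 proteasome genes with both measures, ordered by the WT mean, for libraries of the same name. Points are WT (blue) and KO (red), the dashed line is the WT median of all genes at -0.07, and the KO library with 0 footprints of Psmg2 is not drawn. The order runs from Psmc1 at -0.88 to Psmg3 at 2.08, and most genes lie above the dashed line.

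The genes that serve the proteasome without carrying its name were also without a call. Of the 9 listed genes for further subunits and cofactors tested in each comparison, 0 passed in mRNA, footprints or translational efficiency. They include Adrm1, a ubiquitin receptor, Sem1, a small lid subunit, and Pomp, the maturation factor of the barrel. The proteasome deubiquitinase Uchl5 had the lowest footprint p, with a log2 fold change of 0.59 ± 0.28 (SE) and an edgeR adjusted p of 0.881. Pomp mRNA was 84.8 to 102 CPM over the 8 libraries.

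Of the genes that control transcription of the proteasome, 0 of 12 passed in mRNA, 0 of 8 in footprints and 0 of 9 in translational efficiency. Nfe2l1, the factor that raises proteasome genes when the proteasome is inhibited, had an mRNA log2 fold change of 0.14 ± 0.08 (SE). Its protease Ddi2 was at 0.16 ± 0.09. Irf1, which induces Psmb9, was at -0.30 ± 0.16. Nfyc, a subunit of the CCAAT-binding factor, had a translational efficiency difference of -2.03 ± 0.52 with an edgeR adjusted p of 0.208. Nfyc footprints were 5.66, 13.0, 8.78 and 8.67 CPM in WT and 0, 2.64, 0 and 4.91 CPM in KO. They were too few for the footprint test. The other subunits of the CCAAT-binding factor stood on both sides of 0 in translational efficiency, Nfyb at 0.88 ± 0.34 (adjusted p = 0.365) and Nfya at -0.74 ± 0.30 (adjusted p = 0.370).

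Among shuttles and the segregase, which deliver ubiquitinated proteins, 0 of 12 passed in each comparison. Vcp, the segregase ATPase, had a footprint log2 fold change of 0.46 ± 0.19 (SE) and Zfand5, an activator of the proteasome, 0.37 ± 0.15, both with edgeR adjusted p-values of 0.881. In the ubiquitin list 0 of 12 passed in mRNA, 0 of 10 in footprints and 0 of 12 in translational efficiency. Uba6, an activating enzyme, was at 0.82 ± 0.26 in footprints (adjusted p = 0.863). For antigen presentation and interferon response beside the immunoproteasome, 0 of 13 passed in mRNA, 0 of 5 in footprints and 0 of 10 in translational efficiency. In mRNA 10 of 13 were below 0, against 51.4% of all genes, with a median of -0.12. The mRNA of H2-K1, a class I heavy chain, was at -0.30 ± 0.17, and of the interferon-induced Bst2 at -0.41 ± 0.20 (adjusted p-values of 0.560 and 0.495). The 3 genes above 0 were Isg15 at 0.26 ± 0.41, Tap2 at 0.08 ± 0.23 and Gbp3 at 0.07 ± 0.24. In translational efficiency 3 of 10 were below 0, against 49.6% of all genes. Ifit3 had the lowest p there, at 2.44 ± 0.75 with an edgeR adjusted p of 0.247, on footprints of 0 to 6.33 CPM per library.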

How the data were processed

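Whole-brain ribosome footprints and mRNA were measured in 4 libraries per genotype. Per the submitters' processing notes, reads were handled with TopHat2 and genome build mm10. The counter, its use of strand and the filters are not given in the sources used here. The deposited table holds raw read counts per gene for both assays, and the authors also deposited RPKM tables (reads scaled to gene length and library size). The gene length column, deposited by the authors, was used for levels per kilobase.

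Counts were tested with edgeR 4.0.16 (glmQLFit, glmQLFTest, TMM) in R 4.3.3, with Benjamini-Hochberg adjustment over all genes tested and a threshold of 0.05. Footprints were filtered with filterByExpr (minimum count 10), mRNA at a mean RPKM of 1, and translational efficiency at 1 in both assays, as the interaction of genotype and assay with TMM within each assay. Alternatives used DESeq2 1.42.0, limma 3.58.1 on log2(RPKM + 0.1) and log2(RPKM + 1) of the deposited RPKM, other scalings and filters, left-out libraries and a replicate block. Log2 ratios of footprint to mRNA CPM used a pseudocount of 0.5. The edgeR step was also run on simulated data. Its recovery of set fold changes is not reported here, so the smallest change these libraries could detect is not stated. Replicate libraries differed from each other beyond counting noise (chi-square per degree of freedom at least 5.81).

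Same-numbered libraries were not paired by the data: their deviations correlated between -0.25 and 0.07 in footprints and between -0.30 and 0.03 in mRNA. Named with values in every library were the catalytic, tissue-restricted, activator, inhibitor and chaperone genes, the 5 members with the lowest p in each comparison, and the highest and lowest of each class. The members, lists and tests were chosen with earlier results of these data known. Promoter sequences are RefSeq's, build GRCm38.p6. Limits set by a count of 0 use 3 counts and, like the sampling of reads, cover counting error only. Of the members, 22 overlap another annotated gene, 11 of them a protein-coding one.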

Additional observations from a re-analysis of the deposited data

Results flagged for a closer look

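Of 116 groups of 4 libraries, 7 held a library whose distance to the nearest other exceeded Dixon's critical share of the group's range. Chance gives about 1 in 20 groups, so this number is near what chance alone gives. Psmb9 footprints were 0.732 CPM in WT library 3 and 1.06 CPM in KO library 2, from 2 counts each, with 0 in the other libraries of each group. Psmb9 mRNA was 2.45 CPM in WT library 3 against 1.23 to 1.37 CPM in the others of its group. Psme1 footprints were 39.7 CPM in WT library 1, against 22.0 to 24.5 CPM in the others. Psme2 footprints were 11.5 CPM in KO library 3, from 6 counts, against 4.22 to 4.91 CPM. Psmd9 mRNA was 22.8 CPM in KO library 3, against 25.5 to 25.8 CPM, and the summed mRNA of all 48 members was 3187 CPM in the same library, against 3424 to 3437 CPM.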

How the results depend on the processing

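The absence of member calls held under all alternatives, 18 each for footprints and mRNA and 20 for translational efficiency. The lowest adjusted p of a member was 0.0954, for translational efficiency with DESeq2, and was 0.303 for mRNA (without WT library 3) and 0.531 for footprints (no filter). Of 277 values of named genes under alternatives, 276 kept their direction and side of the threshold. Psme1 mRNA reversed, to 0.0277, without WT libraries 1 and 2. With library totals in place of TMM, the median footprint log2 fold change of the members was -0.171, where that of all genes was -0.151, and the summed footprint ratio was 0.874. Left-out libraries gave medians of -0.07 to -0.01 for footprints and -0.04 to 0.01 for mRNA, while that for translational efficiency ran from -0.01 to 0.04. The sign of the mRNA median turned without KO library 3. Members at an unadjusted p under 0.05 numbered 0 to 5 for footprints (5 without WT library 1 or KO library 2, 0 without WT library 3), 0 to 2 for mRNA, and 2 to 7 for translational efficiency (7 without WT library 1 or KO library 2, 2 without KO library 4). Without WT libraries 1 and 2 together these numbers were 2, 0 and 2. With the replicate block 0 members passed in any comparison, the medians were -0.05, -0.03 and -0.00, and 1 gene of all genes passed in translational efficiency. With libraries blocked by name across assays, an alternative added after seeing the data, 0 members and 5 genes passed. Calls over all genes moved from 0 with DESeq2 to 75 for mRNA, 150 for translational efficiency and 4 for footprints, to 86 in footprints without a filter, 3 with totals and 3 with protein-coding genes alone, to 24 in mRNA without a filter, and to 2 in translational efficiency without a filter. Leaving out libraries gave 0 to 2 genes in mRNA and 0 to 4 in translational efficiency. Footprint depth limits the members with few footprints, the Psmg chaperones, Psmb10 and Psme2 among them.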
